A study of Rattus norvegicus with 8 samples.

Results

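The miR-143 and miR-145 cluster comprises 2 microRNA hairpins that lie close together and give 4 mature miRNAs, miR-143-3p, miR-143-5p, miR-145-5p and miR-145-3p. Its members, rno-miR-143-3p, rno-miR-143-5p, rno-miR-145-5p and rno-miR-145-3p, were picked out by name from the rat rows of a small RNA sequencing table. Summing rows per mature name gave 4 members of 415 rat mature names, and each member held 1 of the 1512 deposited rows. All 32 member values were whole numbers within 1e-09. No other row carried a member's name or sequence (0 rows each). The RNA was taken from exosomes, vesicles released into the medium by cells, of the rat intervertebral disc. Of the 8 libraries, 4 were of nucleus pulposus progenitor cell (NPPC) exosomes and 4 of nucleus pulposus cell (NPC) exosomes. The nucleus pulposus is the soft core of the disc. Strain, age and treatment are left unsaid by the labels, as is whether libraries represent different animals or cultures. The p-values therefore rest on differences among these libraries alone, and those may be technical. Protein-coding markers of nucleus pulposus cells cannot be checked in small RNA.

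A miRNA hairpin is cut into a duplex, one strand of which is usually kept in the Argonaute silencing complex while the other is degraded. The kept strand finds its target mRNAs mainly through its seed, bases 2 to 8 from its 5′ end. Serum response factor and myocardin switch on miR-143 and miR-145 together in smooth muscle, and the pair is best known for keeping smooth muscle cells in their contractile state. miR-145-5p represses KLF4, and in human cells also the pluripotency factors POU5F1 and SOX2 and the cartilage factor SOX9. miR-143-3p represses ELK1.

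The deposited hairpins are shown because they place the strands that the counts compare, with the 2 mature strands in capitals, the 5p strand first:
miR-143 hairpin: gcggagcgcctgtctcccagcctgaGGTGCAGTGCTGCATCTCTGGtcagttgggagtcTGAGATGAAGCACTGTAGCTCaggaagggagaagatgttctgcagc
miR-145 hairpin: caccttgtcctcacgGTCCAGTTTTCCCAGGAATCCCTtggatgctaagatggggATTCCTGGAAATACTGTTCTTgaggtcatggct
In the deposited table the miR-143 hairpin of 105 bases lies at chr18:56971273-56971377 and the miR-145 hairpin of 88 bases at chr18:56969907-56969994, both on the minus strand. The sources name no build for these coordinates. They are 1278 bases apart. RefSeq annotation of GRCr8 places both inside the long noncoding RNA gene Carmn, whose transcript is known from heart and smooth muscle.

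The mature sequences behind the 4 counts are shown with the seed in capitals, each deposited sequence in DNA letters and then the RefSeq sequence (GRCr8) in RNA letters, for which 4 of 4 members had an entry:
miR-143-3p, deposited: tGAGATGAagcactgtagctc
miR-143-3p, RefSeq: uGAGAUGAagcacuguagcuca
miR-143-5p, deposited: gGTGCAGTgctgcatctctgg
miR-143-5p, RefSeq: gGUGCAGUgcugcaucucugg
miR-145-5p, deposited: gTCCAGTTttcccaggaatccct
miR-145-5p, RefSeq: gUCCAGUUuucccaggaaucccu
miR-145-3p, deposited: aTTCCTGGaaatactgttctt
miR-145-3p, RefSeq: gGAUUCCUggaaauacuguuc
The deposited miR-143-3p was 1 base shorter at its 3′ end than the RefSeq strand, with the same seed. Both 5p sequences matched RefSeq from end to end. The deposited miR-145-3p began 2 bases later in the hairpin and ended 2 bases later, so its seed (TTCCTGG) was not the RefSeq seed (GAUUCCU). A shifted 5′ end was uncommon among the rat rows, in 43 of 455 (9.45%), which held 1.30% of rat counts. The 4 members shared no seed with each other, with any other row of the table or with any other of the 693 rat mature names in RefSeq. Their GC content differed widely, at 33.3% for miR-145-3p, 47.6% for miR-143-3p, 52.2% for miR-145-5p and 61.9% for miR-143-5p.

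Library totals were 819845 to 1416940 counts in NPPC and 329011 to 681591 in NPC exosomes, so every NPPC library was deeper. NPC replicate 1 stood apart from the others. Its TMM scaling factor, which corrects a library for its composition, was 1.83, and those of the other 7 libraries lay between 0.837 and 1.02. The members' comparisons are given with and without that library.

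The cluster made up 4.35% ± 0.466 of all counts in NPPC exosomes and 5.60% ± 0.398 in NPC exosomes (SD, n = 4 each), where it was 5.52% ± 0.445 without NPC replicate 1 (SD, n = 3). Nearly all of that was 1 strand: miR-143-3p held 96.7% ± 0.154 of the cluster's counts in NPPC and 97.2% ± 0.892 in NPC exosomes (SD, n = 4 each). By count it ranked 5 among the rat names in every NPPC library, against 4 in NPC replicate 1 and 5 in the other NPC libraries. miR-145-5p, the other strand known to be kept in the silencing complex, ranked 80 to 84 in NPPC and 65 to 92 in NPC libraries. miR-143-5p ranked 103 to 109 in NPPC and 66 to 103 in NPC libraries, and miR-145-3p 100 to 105 in NPPC and 98 to 195 in NPC libraries. Each value is for 1 mature sequence of 21 or 23 bases, so the levels were compared without division by length. How readily each sequence enters a library was not measured. Exosome RNA of a whole culture cannot tell fewer cells with a miRNA from less of it per cell.

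miR-143-3p stood at 48794, 49711, 47730 and 43215 CPM (counts relative to the TMM-scaled library size) in NPPC replicates 1 to 4, against 30727, 58365, 58504 and 51989 CPM in NPC replicates 1 to 4. NPC replicate 1 was the lowest library and the other 3 NPC libraries were the highest, so the groups overlapped only through that library. The means were 47362 ± 2881 CPM in NPPC and 49896 ± 13136 CPM in NPC exosomes (SD, n = 4 each).

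miR-143-5p, the strand of this hairpin that is mostly degraded, stood at 458, 439.7, 417 and 393 CPM in NPPC replicates 1 to 4, against 640.5, 389, 477 and 404 CPM in NPC replicates 1 to 4. The groups overlapped, and NPC replicate 1 was the highest library.

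miR-145-5p stood at 779.6, 736, 777 and 805 CPM in NPPC replicates 1 to 4, against 650.5, 540.1, 579 and 523 CPM in NPC replicates 1 to 4. Every NPPC library lay above every NPC library. The means were 774 ± 28.6 CPM in NPPC and 573 ± 56.6 CPM in NPC exosomes (SD, n = 4 each). In TMM-scaled CPM the coefficient of variation was 3.70% in NPPC and 9.88% in NPC exosomes, the lowest of the 4 members in each group. As a share of library counts the NPC libraries spread far more, at 0.0685% ± 0.00440 in NPPC and 0.0689% ± 0.0331 in NPC exosomes (SD, n = 4 each).

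miR-145-3p, the partner strand that carried the shifted 5′ end, stood at 429, 493, 412 and 404 CPM in NPPC replicates 1 to 4, against 25.02, 450.1, 415 and 262 CPM in NPC replicates 1 to 4. NPC replicate 1 held 15 counts, for which the exact Poisson interval (95%, counting error only) was 8.40 to 24.7. The other 3 NPC libraries held 143 to 280 counts and the NPPC libraries 338 to 505. That NPC library was the lowest of all 8, and the groups overlapped in the other libraries.

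**Figure D1:**
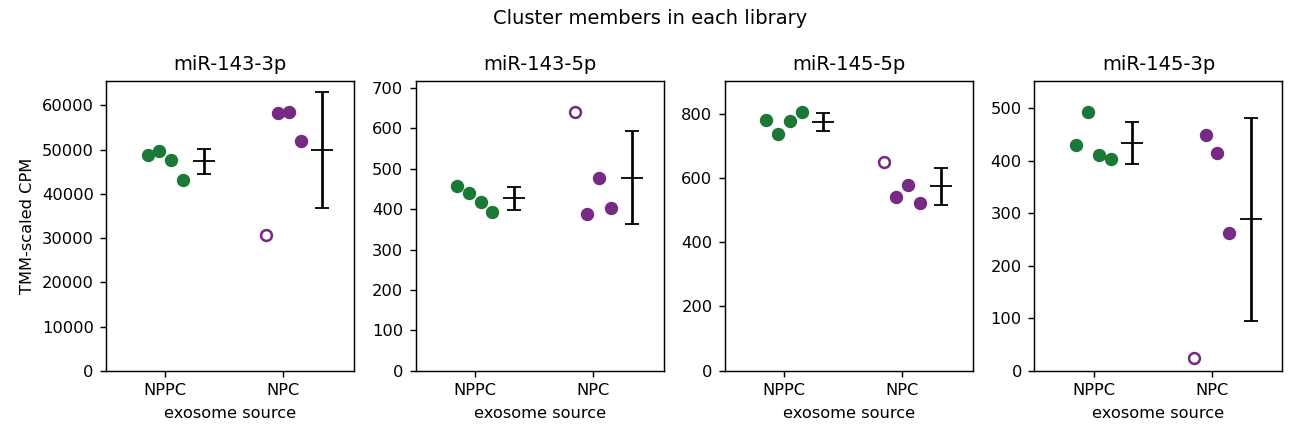
TMM-scaled CPM (linear axes from 0) of the 4 cluster members in NPPC and NPC exosomes. Each point is 1 library, replicates 1 to 4 from left to right, with NPC replicate 1 as an open circle. Black bars are the mean ± SD of 4 libraries. For miR-145-5p all NPPC points lie above all NPC points, and in every panel the open circle is the lowest or the highest NPC point.

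The comparison asks which exosomal miRNAs differ between progenitor cells and nucleus pulposus cells. miR-145-5p was higher in NPPC exosomes by 0.43 ± 0.15 on the log2 scale (SE, 95% interval 0.086 to 0.78), with an unadjusted p of 0.0206, but did not pass after adjustment (Benjamini-Hochberg adjusted p = 0.286 over all 444 rows, edgeR two-sided quasi-likelihood test). None of the 4 members passed at an adjusted p under 0.05 by edgeR, and 0 of 444 rows did (0%), where the DESeq2 Wald test called 8 rows and limma-voom 1. At an unadjusted p under 0.05 the count was 1 of 4 members, against 61 rows or 13.7% by edgeR (6.31% higher and 7.43% lower in NPPC). In 1 of 4 members the groups did not overlap in CPM, against 14.9% of all rows (9.23% higher and 5.63% lower in NPPC). The unadjusted p of miR-145-5p stayed under 0.05 in 12 of 25 other settings. By edgeR it was 0.0574 with DESeq2 size factors, 0.0555 with the authors' scaling, 0.618 with upper-quartile factors, 0.383 with rat names only and 0.117 without a filter. With NPPC replicate 2, 3 or 4 or NPC replicate 2, 3 or 4 left out it lay between 0.0700 and 0.101 by edgeR. Set against the shares over all rows, 1 member of 4 is no result about the cluster as a group.

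For the other 3 members the intervals of the difference included 0. miR-143-3p had a log2 fold change of -0.075 ± 0.20 (SE, 95% interval -0.55 to 0.39) and an adjusted p of 0.863 by edgeR. miR-143-5p had -0.16 ± 0.21 (SE, 95% interval -0.64 to 0.32) and an adjusted p of 0.699 by edgeR. miR-145-3p had 0.59 ± 0.67 (SE, 95% interval -0.96 to 2.14) and an adjusted p of 0.669 by edgeR. The interval of miR-145-3p was the widest of the 4, and its NPC coefficient of variation was 67.1%.

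Without NPC replicate 1 the spread of the NPC libraries was smaller and miR-143-3p and miR-145-5p had a lower unadjusted p. miR-143-3p averaged 47362 ± 2881 CPM in NPPC (SD, n = 4) and 56286 ± 3722 CPM in the 3 other NPC libraries (SD, n = 3) on the scale of all 8 libraries. On that scale miR-145-5p averaged 774 ± 28.6 CPM in NPPC (SD, n = 4) and 547 ± 28.8 CPM in these NPC libraries (SD, n = 3). Refitted with edgeR on 7 libraries, miR-143-3p had a log2 fold change of -0.29 ± 0.081 (SE) with an unadjusted p of 0.00787 and an adjusted p of 0.164. miR-145-5p had 0.46 ± 0.11 (SE) with an unadjusted p of 0.00312 and an adjusted p of 0.132. So 2 of the 4 members had an unadjusted p under 0.05, where 20.9% of the 478 rows then tested did (9% higher and 11.9% lower in NPPC). The Wald test of DESeq2 on these 7 libraries, added after the values had been seen, called both, miR-143-3p at an adjusted p of 0.00243 and miR-145-5p at 0.000352. That test called 10.9% of the rows (5.02% higher and 5.86% lower in NPPC). miR-143-5p and miR-145-3p had log2 fold changes of -0.027 and 0.17 by edgeR without NPC replicate 1, where they were -0.16 and 0.59 with it.

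Values also depended on how libraries were scaled, and the sign of miR-145-5p turned with total counts. The median log2 fold change of all rows was 0.052 with TMM and -0.35 with total count scaling. Over the 278 rat names tested the median was 0.30 with TMM and -0.023 with total counts. Under both scalings miR-145-5p lay nearer to the rat median than to that of all rows, and miR-143-3p lay further from it. Fitted on rat names only (TMM), miR-143-3p had -0.28 and miR-145-5p 0.18, and neither passed (edgeR adjusted p = 0.449 and 0.667). As a share of library counts, miR-143-3p was 3.61% to 4.69% in NPPC and 5.02% to 5.87% in NPC exosomes, and the groups did not overlap. That held for 1 of 4 members and for 13.7% of all rows (5.63% higher and 8.11% lower in NPPC). The log2 fold change of miR-143-3p with total count scaling was -0.37 (unadjusted p = 0.0329, adjusted p = 0.327 by edgeR), with 14.9% of all rows at an unadjusted p under 0.05 (2.25% higher and 12.6% lower in NPPC). Relative to the median of all rows it was -0.13 with TMM and -0.021 with total counts. The log2 fold change of miR-145-5p was -0.0064 ± 0.33 (SE) with total counts. Relative to the median of all rows, miR-145-5p was at 0.38 with TMM and 0.35 with total counts. Its share of library counts was 0.0647% to 0.0749% in NPPC and 0.0497% to 0.119% in NPC exosomes, where the highest value was that of NPC replicate 1.

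**Figure D2:**
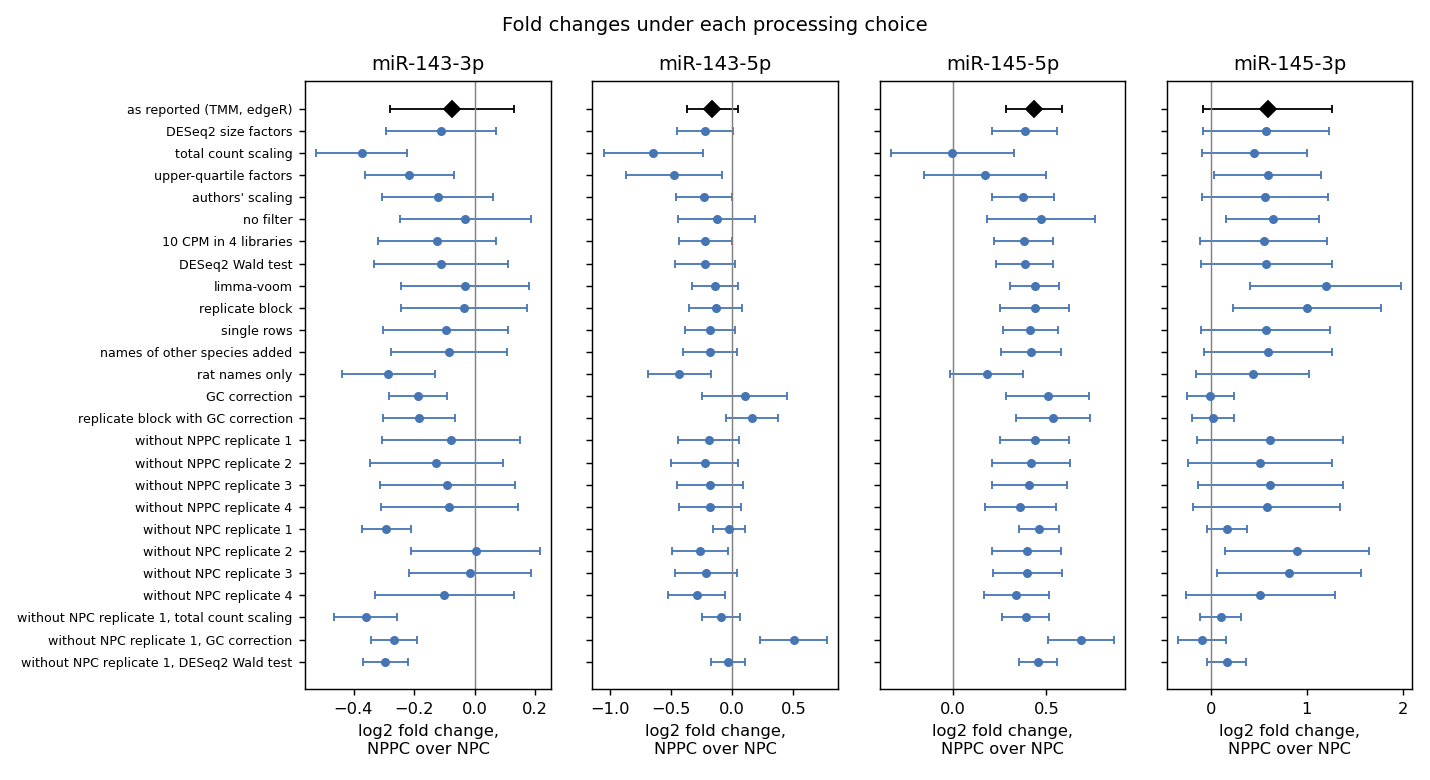
Log2 fold change of NPPC over NPC (x axis, error bars are the SE of each fit) for each member under the reported processing (black diamond) and 25 alternatives (blue points). miR-145-5p lies right of 0 in all but the total count fit at -0.0064, and miR-145-3p ranges from -0.096 to 1.20.

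Ratios of counts within a library do not depend on scaling between libraries. The ratio of the 2 main strands, miR-143-3p over miR-145-5p, was 62.5, 67.5, 61.4 and 53.7 in NPPC replicates 1 to 4, against 47.2, 107.9, 100.8 and 99.2 in NPC replicates 1 to 4. The NPPC libraries lay between NPC replicate 1 below and the other 3 NPC libraries above. The mean log2 ratio was 5.93 ± 0.138 in NPPC and 6.40 ± 0.563 in NPC exosomes (SD, n = 4 each), a difference of -0.47 (exact permutation test, two-sided, p = 0.143, adjusted over the 3 ratios p = 0.429). Without NPC replicate 1 the difference was -0.75, the groups did not overlap, and the exact permutation p was 0.0286 (adjusted p = 0.0429), the smallest that 35 arrangements can give. With 1 ratio alone at that p, its adjusted p over the 3 ratios would be 0.0857. Ratios of other miRNAs were not tested. The 7 libraries other than NPC replicate 1 thus held less miR-143-3p per miR-145-5p in NPPC exosomes, with a geometric mean ratio of 61.1 in NPPC and 102.6 in the 3 NPC libraries.

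The strand ratio of the miR-143 hairpin, miR-143-3p over miR-143-5p, was 106.3, 112.9, 114.4 and 109.9 in NPPC replicates 1 to 4, against 47.9, 149.7, 122.5 and 128.5 in NPC replicates 1 to 4. The NPPC libraries lay between NPC replicate 1 below and the other 3 NPC libraries above, as for the main strands. The difference of the mean log2 ratios was 0.10 (exact permutation p = 1.00, adjusted p = 1.00), and it turned to -0.26 without NPC replicate 1 (exact permutation p = 0.0286, adjusted p = 0.0429). In those 7 libraries the minor strand made up 0.893% ± 0.0288 of the hairpin's counts in NPPC (SD, n = 4) and 0.747% ± 0.0760 in NPC exosomes (SD, n = 3).

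The strands of the miR-145 hairpin were far more even. miR-145-5p over miR-145-3p was 1.82, 1.49, 1.89 and 1.99 in NPPC replicates 1 to 4, against 25.2, 1.20, 1.39 and 1.99 in NPC replicates 1 to 4. In 7 libraries the minor strand thus held 33.4% to 45.5% of the hairpin's counts, and 3.70% in NPC replicate 1. The difference of the mean log2 ratios was -0.76 (exact permutation p = 0.886, adjusted p = 1.00), and 0.26 without NPC replicate 1 (exact permutation p = 0.257, adjusted p = 0.257).

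**Figure D3:**
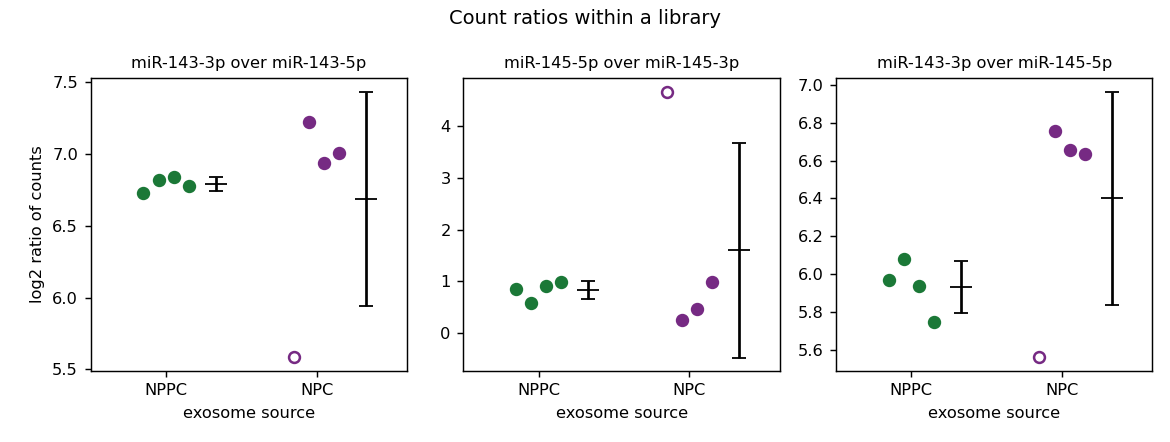
Log2 ratio of the counts of 2 cluster members within each library. Each point is 1 library, replicates 1 to 4 from left to right, with NPC replicate 1 as an open circle, and black bars are the mean ± SD of 4 libraries. In the right panel the NPPC libraries (53.7 to 67.5 on the linear scale) lie below 3 NPC libraries (99.2 to 107.9) and above the open circle (47.2).

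In NPC replicate 1 the members deviated in the order of their GC content. Relative to the mean of the other 3 NPC libraries, its log2 CPM was lower by 3.74 for miR-145-3p (GC 33.3%, a difference of -3.74) and by 0.87 for miR-143-3p (GC 47.6%, a difference of -0.87). It was higher by 0.25 for miR-145-5p (GC 52.2%) and by 0.60 for miR-143-5p (GC 61.9%). The same difference rose with GC over the 278 rat names tested, with a Spearman correlation of 0.838 that describes 1 library and not independent replicates. Its median was -3.76 over 53 names below 40% GC, -1.14 over 105 names from 40% to below 50%, 0.16 over 81 names from 50% to below 60%, and 0.69 over 39 names from 60%. After a GC correction of all libraries miR-143-3p had a log2 fold change of -0.19, miR-143-5p of 0.10, miR-145-5p of 0.51 and miR-145-3p of -0.0085, and none passed (edgeR adjusted p between 0.535 and 0.989). miR-145-5p then had an unadjusted p of 0.0482, as 9.01% of all rows did under 0.05 (4.95% higher and 4.05% lower in NPPC).

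**Figure D4:**
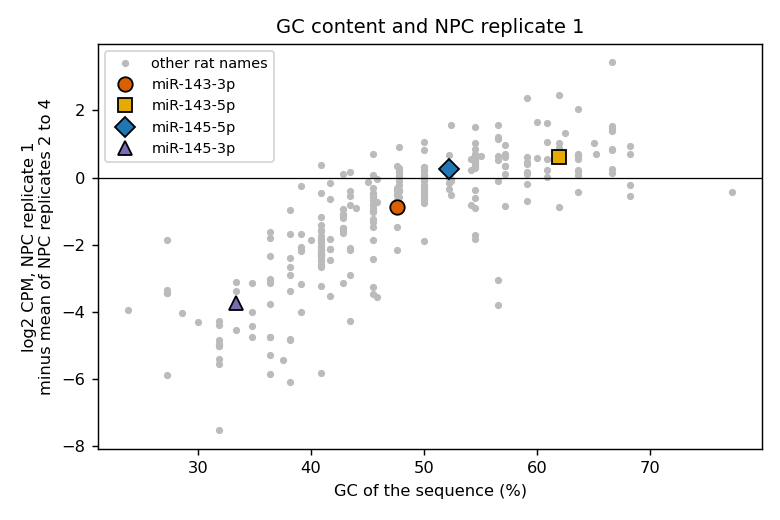
Difference in log2 CPM between NPC replicate 1 and the mean of NPC replicates 2 to 4 (y axis) against the GC percent of the sequence (x axis) for 278 rat names. Coloured symbols are the 4 cluster members, which run from -3.74 at 33.3% GC to 0.60 at 61.9% GC within the cloud of the other names (grey).

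Correlations among the members over the libraries differed in sign. Over 8 libraries the Pearson correlation of log2 CPM was -0.36 between the 2 main strands, -0.72 between the strands of the miR-143 hairpin and 0.14 between those of the miR-145 hairpin. Without NPC replicate 1 these were -0.83, 0.25 and 0.48 over 7 libraries. They are descriptions of libraries that share a scaling and 2 group levels. By the same measure the rat names most like miR-143-3p, among 163 names with a mean of at least 100 CPM, were miR-148a-3p, miR-148a-5p, miR-142-5p, miR-532-5p and miR-185-5p, with correlations of 0.92 to 0.96 over 8 libraries and 0.78 to 0.92 without NPC replicate 1. Those most like miR-145-5p were miR-31a-5p, miR-222-3p, miR-30d-5p, miR-181d-5p and miR-425-5p, with 0.84 to 0.90 over 8 libraries and 0.84 to 0.92 without NPC replicate 1.

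Of 20 other miRNAs known to act in smooth muscle cells, 17 were abundant enough to be tested and 0 passed at an adjusted p under 0.05 by edgeR. Of these 15 had a positive log2 fold change, as did 192 of the 278 rat names and 231 of all 444 rows. Their median was 0.35, where the median was 0.30 over the 278 rat names and 0.052 over all rows. The median of the list was 0.24 without NPC replicate 1 and -0.076 with total count scaling. Over the rat names tested in those fits it was 0.13 and -0.023. At an unadjusted p under 0.05 the count was 3, all higher in NPPC exosomes, where 6.31% of all rows were. miR-221-3p, which promotes smooth muscle proliferation, averaged 21817 ± 1347 CPM in NPPC and 16093 ± 1510 CPM in NPC exosomes (SD, n = 4 each), a log2 fold change of 0.44 (adjusted p = 0.277 by edgeR) that was 0.34 without NPC replicate 1 and 0.060 with total counts. The others, named after their values were seen, were miR-31a-5p at 0.39, which turned to -0.076 with total counts, and miR-23b-3p at 0.58. Of the most abundant members miR-21-5p had 0.62, miR-199a-5p -0.0009 and miR-125b-5p 0.23. Leaving out NPC replicate 1 gave 0.22, -0.043 and 0.17, while total count scaling gave 0.48, -0.41 and -0.17, so that miR-125b-5p turned as well.

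Lists of markers of other cell types took small shares of the counts. They are not all separate from the smooth muscle list. That list also holds miR-1-3p of the striated muscle list, and miR-132-3p and miR-9a-5p of the neural list. Summed, 5 of 7 striated muscle miRNAs held 0.0167% to 0.0231% of NPPC and 0.00243% to 0.0175% of NPC counts, with 2 tested (median log2 fold change 0.46). Both endothelial strands of miR-126a held 0.0411% to 0.0630% of NPPC and 0.0443% to 0.0739% of NPC counts (median 0.20). Of the leukocyte list 6 of 7 miRNAs held 0.110% to 0.150% of NPPC and 0.0274% to 0.0550% of NPC counts, with 5 tested (median 0.28), and the groups did not overlap in this sum. miR-146a-5p, an inflammatory miRNA, averaged 946 ± 225 CPM in NPPC and 84.6 ± 43.4 CPM in NPC exosomes (SD, n = 4 each), a log2 fold change of 3.48 (edgeR adjusted p = 0.0530). miR-155-5p of the same list averaged 298 ± 53.4 CPM in NPPC and 107 ± 67.1 CPM in NPC exosomes (SD, n = 4 each). Its log2 fold change was 1.48 (edgeR adjusted p = 0.349), and 1.07 without NPC replicate 1. The leukocyte list did not move as 1: of the 5 tested, 3 had a positive log2 fold change, while miR-142-5p had -0.34 and miR-150-5p -0.14. miR-150-5p was scarce, at 13.5 CPM in NPPC and 14.8 CPM in NPC exosomes. The erythrocyte list (4 of 4, median 0.11) held 0.0174% to 0.131% of NPPC and 0.0324% to 0.0757% of NPC counts. The epithelial list (8 of 10, with 7 tested, median 0.63) held 0.0143% to 0.0243% of NPPC and 0.00790% to 0.0173% of NPC counts. The neural list (6 of 7, with 4 tested, median 0.36) held 0.213% to 0.244% of NPPC and 0.198% to 0.216% of NPC counts. The hepatic list (3 of 3, median -0.60) held 0.0301% to 0.0346% of NPPC and 0.0344% to 0.0911% of NPC counts. The cartilage strands of miR-140 and miR-455 (4 of 4, median 0.15) held 0.758% to 0.917% of NPPC and 0.997% to 2.64% of NPC counts. The groups did not overlap in that sum either, and miR-140-3p averaged 7585 ± 423 CPM in NPPC and 10879 ± 1881 CPM in NPC exosomes (SD, n = 4 each, edgeR adjusted p = 0.277). The other cartilage strands were not lower in this way, with miR-140-5p at 0.37, miR-455-5p at 0.31 and miR-455-3p at -0.010. As a share of library counts, 13.7% of single rows did not overlap between the groups (5.63% higher and 8.11% lower in NPPC). Without NPC replicate 1 the log2 fold change was 3.12 for miR-146a-5p and -0.44 for miR-140-3p, which had -0.52 with it. The list medians without that library were 0.38 for striated muscle, -0.091 for endothelial, 0.27 for leukocyte, -0.26 for erythrocyte, 0.39 for epithelial, 0.29 for neural, -0.86 for hepatic and 0.031 for cartilage miRNAs, so the endothelial and erythrocyte medians turned. With total counts 4 of these medians turned, to -0.044 for endothelial, -0.16 for leukocyte, -0.033 for erythrocyte and -0.22 for cartilage miRNAs. With the GC correction the striated muscle (-0.19), endothelial (-0.41) and erythrocyte (-0.23) medians turned. What part the leukocyte and cartilage shares have in the cluster's values was not tested. miR-208a-3p, miR-208b-3p, miR-223-3p, miR-141-3p, miR-429 and miR-9a-3p had no row under a rat name. Rows named after other species were not searched for them. In these lists 0 members passed by edgeR. At an unadjusted p under 0.05 were 2 of 5 tested leukocyte miRNAs, both higher in NPPC, and 1 of 4 cartilage miRNAs, lower in NPPC. Of all 444 rows 13.7% were (6.31% higher and 7.43% lower in NPPC).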

How the data were processed

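For 8 libraries the authors deposited estimated counts for 1512 rows, a scaled signal per library (the count times 1 factor) and the GC percent of each hairpin. Per the labels' protocols, libraries were made with a TruSeq kit for small RNA, and the submitters' processing notes list CASAVA 1.8. Aligner, genome build and miRBase release are not stated in those sources.

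Rat rows were summed per mature name and rounded to whole numbers. The whole table was tested with edgeR 4.0.16 in R 4.3.3 (TMM, filterByExpr, two-sided quasi-likelihood test, Benjamini-Hochberg over 444 rows). The SE is the size of the log2 fold change divided by the root of F. Log2 CPM used a prior count of 2, and ratios a pseudocount of 0.5 with exact permutation over 70 arrangements. The GC correction is a loess curve per library (span 0.75). limma 3.58.1 and DESeq2 1.42.0 were alternatives. The edgeR test was checked on simulated data.

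The members, lists and tests were chosen with earlier results of these data known. Beside the members, the text names the 4 most abundant tested smooth muscle miRNAs, up to 2 of each other list by mean CPM, and the 5 names most correlated with miR-143-3p and with miR-145-5p. Further list members were named after their values were seen or because lists share them. Alternatives changed scaling, filter, test, summing, GC, pairing and libraries.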

Additional observations from a re-analysis of the deposited data

Results flagged for a closer look

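Over 22 groups of 4 libraries (4 members as CPM and as a share of counts, and 3 ratios, in each group), 4 had 1 value standing away from the rest by Dixon's criterion, which by chance marks about 1 group in 20. All 4 were NPC replicate 1, and the values are not independent of each other. As a share of library counts miR-143-5p stood at 0.117% there (others 0.0391% to 0.0409%) and miR-145-5p at 0.119% (others 0.0497% to 0.0544%). The log2 ratio of miR-145-5p over miR-145-3p stood at 4.65 (others 0.26 to 0.99), and that of miR-143-3p over miR-145-5p at 5.56 (others 6.63 to 6.75). In TMM-scaled CPM none of the 8 groups held such a library.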

How the results depend on the processing

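The members' calls kept their side of the threshold under all but 1 of 25 other settings, 3 of them added after the values were seen. The exception, one of the added 3, was the DESeq2 Wald test without NPC replicate 1, which called miR-143-3p (-0.29) and miR-145-5p (0.45). Signs turned for miR-145-5p with total count scaling (-0.0064), for miR-143-5p with the GC correction (0.10), with the replicate block and GC correction (0.16) and with the GC correction without NPC replicate 1 (0.50), and for miR-145-3p with the GC correction (-0.0085) and the same without NPC replicate 1 (-0.096). With a library left out the log2 fold change ran from -0.29 to 0.0030 for miR-143-3p (the positive value without NPC replicate 2), -0.29 to -0.027 for miR-143-5p, 0.34 to 0.46 for miR-145-5p and 0.17 to 0.90 for miR-145-3p. The ratio differences ran from -0.26 to 0.28 (miR-143-3p over miR-143-5p), -1.21 to 0.26 (miR-145-5p over miR-145-3p) and -0.75 to -0.35 (miR-143-3p over miR-145-5p). Without NPC replicate 1 the first was -0.26, the second 0.26 and the third -0.75. Both ratios with miR-143-3p then had an adjusted p of 0.0429 by exact permutation. They share the miR-143-3p count, and each had the smallest p that 35 arrangements can give. With 1 ratio alone at that p, its adjusted p would be 0.0857. The causes were not tested.

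Rows called over the whole table numbered 0 as reported, 2 without a filter, 8 with the DESeq2 Wald test, 52 with that test without NPC replicate 1, and 0 to 2 with a library left out (2 without NPC replicate 1). They numbered 1 with DESeq2 size factors, total counts, upper-quartile factors, the authors' scaling, the 10 CPM filter, limma-voom, names of other species added, rat names only, the GC correction (with or without the replicate block), and total counts or the GC correction without NPC replicate 1. Same-numbered libraries correlated at 0.57, 0.16, 0.22 and 0.035 in their deviations from group means, so the numbers are not shown to pair them. With the replicate block 0 rows passed and 70 had an unadjusted p under 0.05 (61 without it), and the log2 fold changes were -0.034 for miR-143-3p, -0.14 for miR-143-5p, 0.44 for miR-145-5p and 1.00 for miR-145-3p. The unadjusted p of miR-145-5p was then 0.0612, against 0.0206 without the block (edgeR). In pairs miR-143-3p over miR-145-5p had an exact sign-flip p of 0.25. The smallest p that 16 sign flips can give is 0.125, so that test could not fall under 0.05. For miR-145-3p, which held 15 counts in NPC replicate 1, the SE of the log2 fold change was 0.67 with that library and 0.21 without it (edgeR).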
